A study of Mus musculus with 3 samples.

Results

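Adipokines are the hormones and secreted proteins of fat cells. The 8 genes described here comprise 6 of them, namely Adipoq, Lep, Retn, Cfd, Nampt and Rbp4, together with the adiponectin receptor genes Adipor1 and Adipor2. They were chosen by name, and all peaks that the deposited annotation assigned to these names were taken. That gave 5 of 16937 peaks in the Foxp4 list and 19 of 17564 peaks in the H3K27ac list, and all 8 genes were found among the 21031 protein-coding genes with a curated messenger RNA in the RefSeq annotation of GRCm38.p6.

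The lists come from chromatin immunoprecipitation with sequencing (ChIP-seq) of mouse beige adipocytes, the heat-producing fat cells that form within white fat. Foxp4, a forkhead transcription factor, and H3K27ac, the acetylation of histone H3 that marks active promoters and enhancers, were mapped in 1 library each. An input DNA library is also labelled and was not analysed here. All 3 libraries share strain and cell source: cells were made in culture from the stromal-vascular fraction of C57BL/6 inguinal white fat (iWAT), a mixed starting population. They had 3 days in 20% fetal bovine serum and were then fed to confluence. Induction lasted 48 h in 10% serum with 5 µM troglitazone, an activator of the fat cell receptor PPAR gamma, 50 nM of the thyroid hormone T3, 1 µM of the glucocorticoid dexamethasone, the phosphodiesterase inhibitor isobutylmethylxanthine at 0.5 mM and insulin at 5 µg/ml. A further 6 days followed with troglitazone, T3 and insulin. No gene deletion or untreated culture is labelled, and no animal age is given in the sources used here. The labels name an antibody against Foxp4 for every library and none against H3K27ac.

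Adiponectin, encoded by Adipoq, circulates in large multimers and raises insulin sensitivity and fatty acid oxidation through Adipor1 and Adipor2, membrane proteins of the PAQR family. Leptin, encoded by Lep, reports fat stores to the brain, and resistin, encoded by Retn, is in mice a fat cell hormone that opposes insulin action. Cfd encodes adipsin, the complement factor D of the alternative pathway. Nampt makes the precursor of NAD from nicotinamide inside cells and is also secreted as visfatin, and Rbp4 carries retinol in blood. In fat cells Adipoq, Retn, Cfd and Lep are classical targets of PPAR gamma or C/EBP alpha.

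RefSeq promoter windows of GRCm38.p6, the assembly of mm10, matched all 8 genes with 10 windows, from 250 bases before to 50 bases after a start. For Adipor2 they hold its internal start only, and the windows of its 2 upstream starts were not searched. The 250 bases before 5 starts are printed 5′ to 3′ on the gene's strand. They are the window under the H3K27ac peak of Adipor1, the window of Adipoq, whose Foxp4 peak lies in the adjoining intron, and the windows of Adipor2, Rbp4 and Lep, which hold a motif searched for. Capitals mark motif matches. They are TGTTTAC or TATTTAC for forkhead factors, AGGTCANAG for the start of a PPAR and RXR direct repeat, and TTGCNNAA for C/EBP factors, searched on both strands.

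Adipor1, chr1:134415128-134415377, plus strand: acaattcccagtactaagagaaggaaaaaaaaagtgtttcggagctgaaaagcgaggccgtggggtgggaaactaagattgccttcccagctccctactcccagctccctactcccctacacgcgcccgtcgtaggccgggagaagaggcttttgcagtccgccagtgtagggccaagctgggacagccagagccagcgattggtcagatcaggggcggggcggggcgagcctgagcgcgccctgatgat

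Adipoq, chr16:23146286-23146535, plus strand: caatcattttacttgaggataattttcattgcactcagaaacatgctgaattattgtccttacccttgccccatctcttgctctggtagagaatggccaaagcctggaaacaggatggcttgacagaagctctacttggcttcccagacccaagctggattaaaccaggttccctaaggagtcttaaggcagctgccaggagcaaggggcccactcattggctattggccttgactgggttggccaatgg

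Adipor2, chr6:119388735-119388984, minus strand, before its internal start: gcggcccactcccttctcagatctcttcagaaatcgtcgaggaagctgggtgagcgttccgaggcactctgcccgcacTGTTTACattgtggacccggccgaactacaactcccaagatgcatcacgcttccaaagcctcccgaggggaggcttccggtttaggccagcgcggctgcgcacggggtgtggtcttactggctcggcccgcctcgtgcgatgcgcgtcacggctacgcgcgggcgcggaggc

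Rbp4, chr19:38125322-38125571, minus strand, before the upstream of its 2 starts: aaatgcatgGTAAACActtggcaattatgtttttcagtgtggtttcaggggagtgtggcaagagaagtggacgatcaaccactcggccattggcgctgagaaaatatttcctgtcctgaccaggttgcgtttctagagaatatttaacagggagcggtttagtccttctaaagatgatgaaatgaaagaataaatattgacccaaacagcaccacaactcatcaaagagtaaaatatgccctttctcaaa

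Lep, chr6:29059971-29060220, plus strand: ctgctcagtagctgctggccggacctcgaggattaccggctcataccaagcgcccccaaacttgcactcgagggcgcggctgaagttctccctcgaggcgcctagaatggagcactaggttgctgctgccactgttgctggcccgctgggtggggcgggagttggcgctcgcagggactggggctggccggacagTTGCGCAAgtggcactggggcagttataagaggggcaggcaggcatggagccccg

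Forkhead letters stood in 3 of the 10 windows of these genes and in 6.54% of all 32851 RefSeq windows. They began 172 bases before the internal start of Adipor2, 241 bases before the upstream start of Rbp4 (read on the opposite strand) and at base 37 after the downstream start of Adipor1 (also opposite strand, in a stretch not printed). C/EBP letters stood in 2 windows, of Lep and of the downstream start of Rbp4, against 10.8% of all windows. At Lep the match is a palindrome, counted on either strand, that begins 55 bases before the start. The PPAR and RXR letters stood in 0 of the 10 windows and in 2.01% of all windows. No Foxp4 peak touched any of the 10 windows, so these letters lay outside the Foxp4 peaks, and absence of a match says only that these letters were not in the window. The sequence under the Foxp4 peaks themselves was not searched, since no genome sequence was used here.

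The promoters differed in base composition. CpG dinucleotides numbered 0 in the 300-base window of Adipoq, 2 in that of Retn and 2 in that of Cfd, against a median of 7 over all windows. Nampt had 36, the internal start of Adipor2 had 41, Lep had 19 and the 2 starts of Adipor1 had 21 and 40. Rbp4 had 5 at its upstream start and 40 at its downstream start. H3K27ac promoter peaks, described next, were assigned to Adipor1 and Nampt, with CpG-rich windows, and to Retn, with a CpG-poor window. None was assigned to Lep, Adipor2 or Rbp4, although each had a window above the median, with 19, 41 and 40 CpG. Adipoq and Cfd, with CpG-poor windows, had none either. Only the peak of Adipor1 touched the windows in which CpG was counted. At Nampt and Retn the peak began 425 and 94 bp after the start, beyond the window.

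To ask which of these genes carried Foxp4 or acetylated chromatin, peaks were counted per gene. Foxp4 peaks were assigned to 4 of the 8 genes (Adipoq, Nampt, Rbp4 and Adipor1), where 36.6% of all protein-coding genes had such a peak. An H3K27ac peak was assigned to 5 of 8 (Lep, Retn, Nampt, Adipor1 and Adipor2), against 37.5% of all protein-coding genes. Nampt and Adipor1 had peaks of both kinds (2 of 8, against 20.4%). Cfd had none in either list (1 of 8, against 46.3%). No Foxp4 peak had its centre within 1000 bp of a transcription start of these genes (0 of 8, against 6.77%). Within 3000 bp the number was 3 of 8 (Adipoq, Rbp4 and Adipor1), against 10.4%. An H3K27ac promoter peak by the 1000 bp rule stood at Retn, Nampt and Adipor1 (3 of 8, against 26.0%). Within 500 bp it stood at Adipor1 alone, a setting for which the share of all genes is not given here. With 8 genes chosen by name and 1 library per target, these counts are a description, and none was tested.

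None of the Foxp4 peaks of these genes shared a base with an H3K27ac peak. The count was 0 of 5 Foxp4 peaks, against 8.21% of all Foxp4 peaks, and 0 of 19 H3K27ac peaks, against 7.91% of all H3K27ac peaks. Counted by gene, 0 of 8 had a Foxp4 peak overlapping H3K27ac, against 5.36% of protein-coding genes. With so few peaks, counts of 0 lie too near those shares to be read as a property of these genes.

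**Figure D1:**
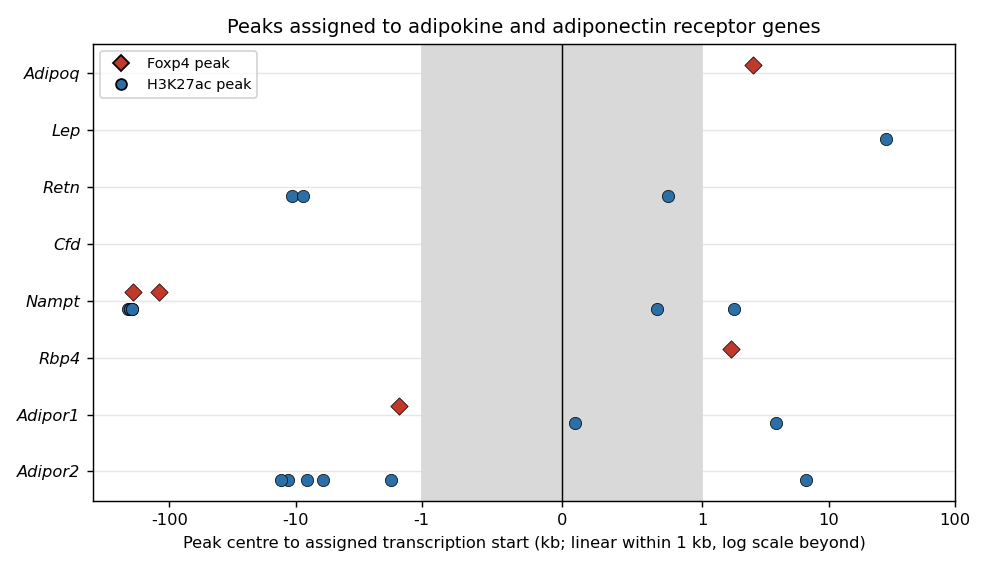
Signed distance of each peak centre from its assigned transcription start (kb, linear within 1 kb and logarithmic beyond) for the 8 genes, with Foxp4 peaks as red diamonds and H3K27ac peaks as blue circles. The shaded promoter window of 1000 bp either side holds 3 H3K27ac peaks (Retn, Nampt and Adipor1) and no Foxp4 peak, and Cfd has no peak.

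Each peak carries the authors' score, a whole number that ran from 20 to 1357 in the Foxp4 list and from 20 to 351 in the H3K27ac list. Scores were ranked only within a list, as the percentage of its peaks below, with ties counted at the middle. The 5 Foxp4 peaks of these genes scored 49 (Adipor1), 34 (Adipoq), 27 (Rbp4), 27 and 26 (Nampt). Their median of 27 equals the median of the whole Foxp4 list. The 19 H3K27ac peaks ran from 21 to 113, with a median of 39, against 40 for the whole list. In width, the Foxp4 peaks had a median of 371 bp, against 354 bp for all Foxp4 peaks, and the H3K27ac peaks 499 bp, against 529 bp for all H3K27ac peaks. The scores 49, 34 and 27 belong to 6 values (21, 27, 34, 41, 49 and 57) that recur in the Foxp4 list far more often than their neighbours. Such values were held by 4 of the 5 Foxp4 peaks of these genes and by 73.1% of all Foxp4 peaks, and the peak of score 26 at Nampt was the exception.

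**Figure D2:**
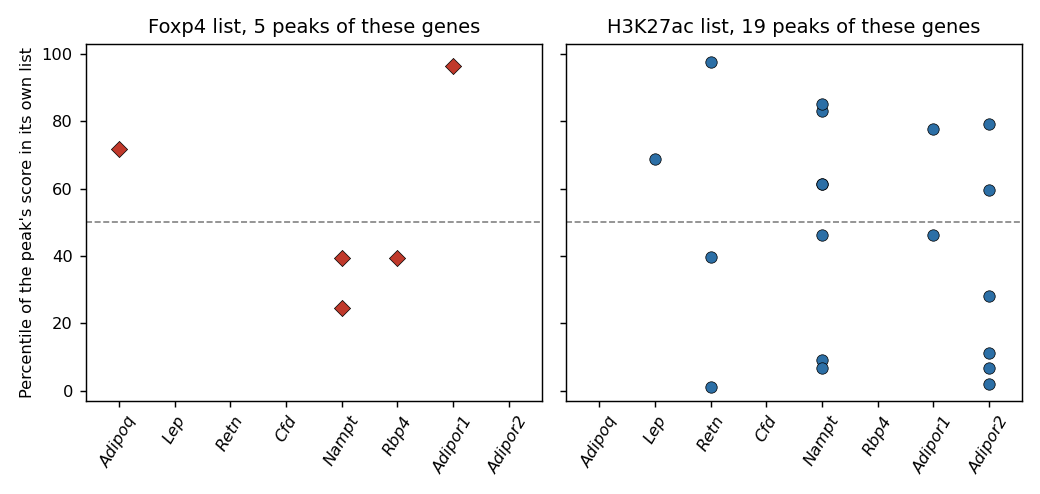
Percentile of each peak's score within its own list (vertical axis, percent; the dashed line is the middle of the list) for the 5 Foxp4 peaks (left) and the 19 H3K27ac peaks (right) of the 8 genes. The Foxp4 peak of Adipor1 reached 96.6 and the widest H3K27ac peak of Retn 97.5, while the promoter peak of Retn lay at 1.09.

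At Adipoq, Foxp4 and acetylation did not meet. The Foxp4 peak (chromosome 16, 23148505 to 23149598 on mm10) lay in intron 1 of 2, between 1969 and 3062 bp after the start. At 1094 bp it was wider than 99.7% of Foxp4 peaks by mid-rank, while its score of 34 ranked at 71.8. No H3K27ac peak was assigned to Adipoq or lay within its gene body. The nearest acetylated region was 20013 bp away, at the promoter of the replication factor gene Rfc4, with a score of 94. Adipoq, like Cfd and Rbp4, had no H3K27ac peak assigned to it, where 37.5% of all protein-coding genes had one. By the narrower count of promoter peaks, 7 of 8 adipocyte marker genes, given further on, had H3K27ac, against 26.0%.

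Lep had no Foxp4 peak and a lone H3K27ac peak of score 51 (percentile 68.7). It spanned 883 bp of intergenic sequence (chromosome 6, 29088059 to 29088941), with its centre 28279 bp after the start and beyond the end of the gene at 29073876. The nearest Foxp4 peaks, with scores of 35 and 27, lay 28802 and 23922 bp from the start of Lep on its upstream side and were assigned to Mir129-1. No protein-coding gene other than Lep began or ended within 50000 bp of its start.

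Retn held the widest and highest-scoring acetylated region of the group. A peak of score 113 (percentile 97.5) covered 2462 bp (percentile 98.8 by width) on chromosome 8 from 3645889 to 3648350, with its centre 8651 bp before the start. A neighbour of score 37 lay just beyond it, 10728 bp before the start. The peak at the promoter, by contrast, scored 21 (percentile 1.09, the lowest of the 19). It was 1324 bp wide, reached from 94 to 1417 bp after the start, with its centre in intron 2 of the annotated transcript. Retn had no Foxp4 peak. Its neighbourhood is crowded: 9 protein-coding genes have an end within 50000 bp, and Foxp4 promoter peaks of score 34 were assigned to Pet100 and to Stxbp2, the syntaxin-binding gene upstream. The upstream acetylated region lay between Stxbp2 and Retn and went to Retn by distance alone.

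Cfd had no peak of its own, although the region around it was acetylated. Within 50000 bp of its start lay 3 Foxp4 and 8 H3K27ac peaks, all assigned to other genes. The nearest was an H3K27ac peak of score 39, 6483 bp away and assigned to the neutrophil elastase gene Elane. The highest scored 163, at the promoter of E130317F20Rik. All 3 Foxp4 peaks were assigned to Arid3a, and 1 of them, of score 28, overlapped an H3K27ac peak of score 91 there.

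Nampt had the most peaks of the group, 2 from the Foxp4 list and 7 from the H3K27ac list. Only 1.16% of protein-coding genes had as many H3K27ac peaks or more. The promoter peak scored 68 (percentile 85.3) on chromosome 12 from 32820760 to 32821258. It lay in a CpG island of intron 1, beginning 425 bp after the start, and a peak of score 24 followed with its centre 1796 bp after the start. The other 5 formed a cluster of 15.2 kb (32608084 to 32623275), with centres 197657 to 212007 bp before the start and scores of 25, 39, 46, 65 and 46 in order of position. Both Foxp4 peaks were distal as well and stood in repeats. The peak of score 26, in a LINE element, lay 192064 bp before the start and 4821 bp from the near edge of the acetylated cluster. The peak of score 27, in a SINE element, lay 119474 bp before the start. Ccdc71l, the next protein-coding gene on that side, is 437391 bp from Nampt, so nearest-start assignment left this stretch to Nampt.

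The deposited assignment also removed peaks from Nampt. Inside its gene body of 33035 bp lay 4 H3K27ac peaks, of which 2, with scores of 26 and 34, were given to Gdap10, an annotated gene with its start inside Nampt. A further pair just past the end of Nampt, with scores of 23 and 59, was likewise assigned to Gdap10. No Foxp4 peak lay within 50000 bp of the Nampt start.

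Rbp4 resembled Adipoq in having a Foxp4 peak and no acetylated region of its own. The Foxp4 peak scored 27 (percentile 39.4) in intron 4 of 5, with its centre 1688 bp after the downstream start (chromosome 19, 38122938 to 38123308). The nearest H3K27ac peak was 34554 bp away and was assigned to Ffar4, a fatty acid receptor gene. There, an H3K27ac peak of score 58 overlapped a Foxp4 peak of score 21, beyond the 3' end of Rbp4. Adipoq and Rbp4 share their count pattern, 1 Foxp4 peak and no H3K27ac peak, with 11.3% of protein-coding genes.

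**Figure D3:**
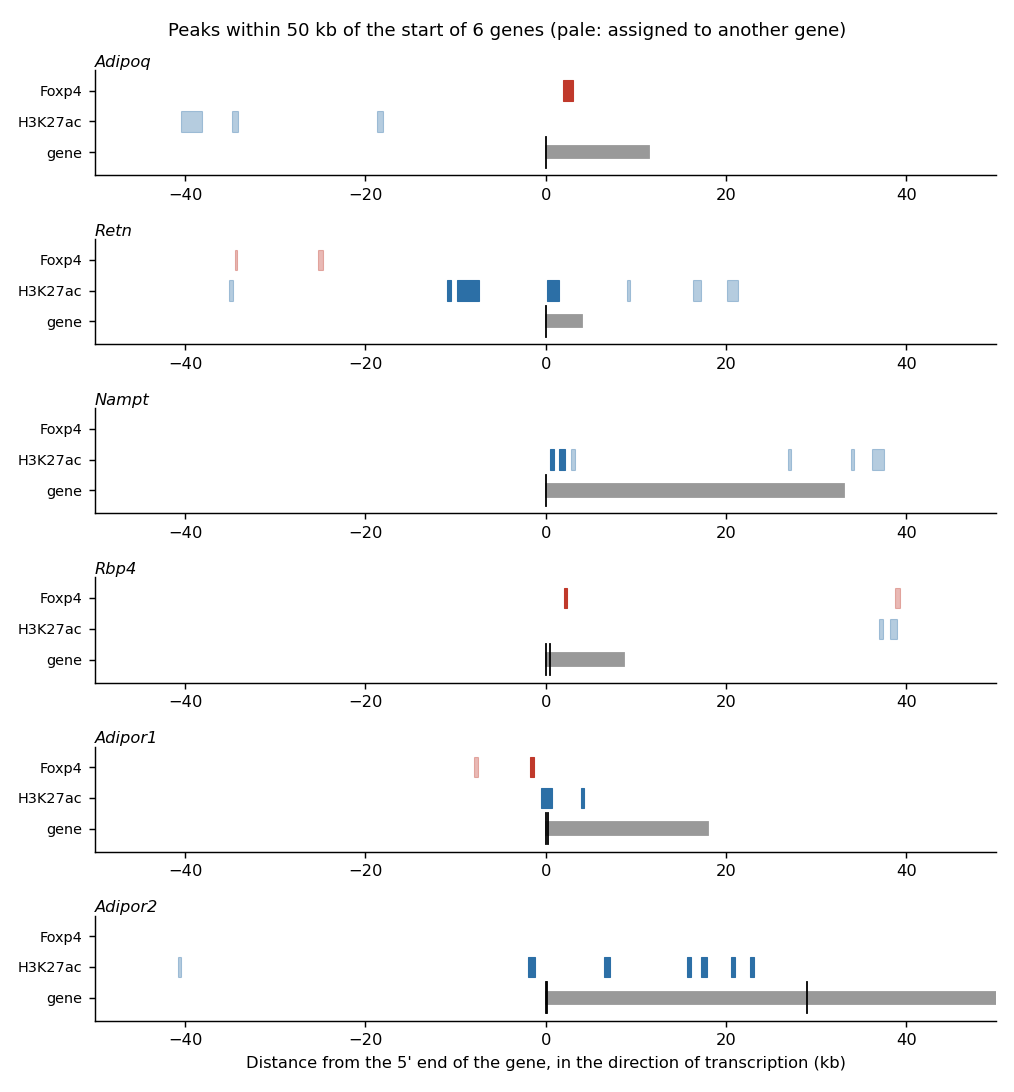
Peaks of either list within 50 kb of a start of 6 of the genes, drawn to scale against distance from the gene's 5' end in its direction of transcription (kb). Grey bars are gene bodies, black ticks transcription starts, and pale peaks were assigned to another gene. The Foxp4 peaks of Adipoq and Rbp4 stand in gene bodies with no H3K27ac peak, the Foxp4 peak of Adipor1 stands next to an acetylated promoter, and the distal peaks of Nampt fall outside the window.

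Among the receptors, Adipor1 alone had both kinds of peak close to its start. Its Foxp4 peak had the highest score of the group, 49 (percentile 96.6, a recurrent value), on chromosome 1 from 134413678 to 134414038, 1520 bp before the start. It lay in a B1 SINE element between Cyb5r1 and Adipor1. The H3K27ac promoter peak scored 58 (percentile 77.6) from 134414907 to 134416031. It ran from 471 bp before to 653 bp after the first of 2 starts 134415378 and 134415664, and so covered both. A gap of 868 bp separated it from the Foxp4 peak, the smallest at any Foxp4 peak of these genes. Across the whole lists, 12.9% of Foxp4 peaks lay within 1000 bp of an H3K27ac peak, overlaps included. Another H3K27ac peak, of score 39, lay in intron 1 at 3807 bp after the downstream start.

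Adipor2 had 6 H3K27ac peaks over 25.0 kb and no Foxp4 peak. A number of 6 or more was reached by 1.63% of protein-coding genes. In all, 5 of the 6 lay in intron 1 of the longer transcript, with scores of 27, 33, 59, 22 and 45 in order of position on chromosome 6. The peak of score 59 (119399818 to 119400429) ranked at percentile 79.2 and carried a LINE annotation. Of these, 4 were measured by the authors' annotation from the internal start, 6085 to 13074 bp before it. The remaining peak, of score 24 (119418930 to 119419626), had its centre 1750 bp before the upstream start that the deposited distances use (119417528) and 1579 bp before the outermost RefSeq start (119417699). No peak centre was within 1000 bp of any of its 3 starts, the internal one (119388734) included, so Adipor2 counted as lacking a promoter peak. The nearest Foxp4 peak was 147663 bp from the closest of the 6 and belonged to Cacna2d4.

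By the authors' class, 9 of the 19 H3K27ac peaks were intronic, against 45.8% of all H3K27ac peaks. Another 9 of the 19 were intergenic, against 27.2%, and 1, that of Adipor1, was in the promoter class, against 16.9%. The 5 distal peaks of Nampt are among the 9 intergenic peaks, so that count rests in large part on 1 locus. A repeat was the detailed annotation of 3 of the 5 Foxp4 peaks (32.0% of all Foxp4 peaks) and of 4 of the 19 H3K27ac peaks (15.7% of all H3K27ac peaks). More than 100 kb from their assigned start stood 2 of the 5 Foxp4 peaks, against 21.6% of all Foxp4 peaks, and 5 of the 19 H3K27ac peaks, against 8.11% of all H3K27ac peaks. All 7 were assigned to Nampt, so they describe 1 locus.

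To place these genes among others, the protein-coding genes with the same numbers of Foxp4 peaks, H3K27ac peaks and overlaps were counted, and the 2 closest in highest score were named. Predicted gene models (names of the Gm, Rik and LOC kinds) were passed over in naming and in counting ties. Pattern counts include such models and the gene itself. The pattern of Nampt was held by 9 genes, the closest being Gldc (highest scores 27 and 62 in the Foxp4 and H3K27ac lists, against 27 and 68 at Nampt) and Mmp27 (41 and 69). Adipor2 shared its pattern with 16 genes in all, led by Cmip (highest H3K27ac score 62) and Angpt4 (52). For Retn the number was 182, led by Emx2 (112) and Cap1 (116), a gene proposed to encode a resistin receptor in humans. Adipor1 had 367, led by Tmtc4 (49 and 59) and Iah1 (46 and 58). At Lep 89 genes were tied at the same H3K27ac score, among them Abhd14a and Adgrg1. Ties at the Foxp4 score numbered 469 for Adipoq, among them AU040320 and Abca8a, and 732 for Rbp4, among them AI593442 and AW209491. Likeness was measured over 2 libraries only and says nothing of shared function.

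The pathways around these genes were described with 10 further lists of 104 entries. Of these, 12 had a Foxp4 promoter peak (11.5%, against 6.77% of protein-coding genes), 32 an H3K27ac promoter peak (30.8%, against 26.0%) and 11 a Foxp4 peak overlapping H3K27ac (10.6%, against 5.36%). The lists differ in size and were not tested.

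Leptin signalling had 4 of 6 genes with an H3K27ac promoter peak and 3 of 6 with a Foxp4 promoter peak. Foxp4 promoter peaks that overlapped H3K27ac stood at Sh2b1, an adaptor of the receptor kinase, at Socs3, the feedback inhibitor, and at the kinase gene Jak2. Promoter peaks scored 34 for Foxp4 and 74 for H3K27ac at Sh2b1, 32 and 56 at Socs3, and 28 and 79 at Jak2. Whether the scored H3K27ac peak was the one overlapped is not given here. Stat3, the transcription factor of the pathway, had an H3K27ac promoter peak of score 146 and no Foxp4 promoter peak. The ligand gene Lep itself had neither.

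Adiponectin folding and secretion had 5 of 6 genes with an acetylated promoter and 0 of 6 with a Foxp4 promoter peak. H3K27ac promoter scores were 62 at Hspa5, the chaperone of the endoplasmic reticulum, 54 at Erp44, which retains adiponectin by a thiol bond, and 39 each at Ero1a and P4hb, which form disulfide bonds. In the list of adiponectin signalling and binding, 5 of 11 had an H3K27ac promoter peak, including the AMP-activated kinase subunit genes Prkag2 (69) and Prkaa1 (55) and the upstream kinase gene Stk11 (52), and 1 of 11 had a Foxp4 promoter peak, Prkab2 (32). Of the other PAQR genes, 2 of 9 had a Foxp4 promoter peak (Paqr8 with 27 and Paqr9 with 22), and 2 of 9 an H3K27ac promoter peak (Paqr4 with 52 and Mmd with 44). No gene of that list had both at its promoter. Among C1q and TNF related proteins, relatives of adiponectin, 2 of 12 had a Foxp4 promoter peak and 3 of 12 an H3K27ac promoter peak. C1qtnf7 (Foxp4 score 41, H3K27ac score 28) and C1qtnf1 (22 and 37) had both, and C1qtnf5 had H3K27ac alone (45).

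NAD salvage and use, the pathway of Nampt, had 5 of 12 genes with an H3K27ac promoter peak and 0 of 12 with a Foxp4 promoter peak. The scores were 64 at the NAD-consuming enzyme gene Cd38, 63 at the deacetylase gene Sirt1, 61 at the nicotinamide methyltransferase gene Nnmt and 51 at Sirt3. Retinol transport and handling, the pathway of Rbp4, had 1 of 11 with a promoter peak in either list. The gene was the same, Dhrs3, a retinal reductase. Its Foxp4 promoter peak of score 41 overlapped H3K27ac, and its H3K27ac promoter peak scored 79. The alternative complement pathway, to which Cfd belongs, had 0 of 7 with a promoter peak in either list, and 2 of 7 had an H3K27ac peak further from a start. Resistin relatives and proposed receptors had 0 of 5 with a Foxp4 promoter peak and 2 of 5 with H3K27ac, at Cap1 (116) and the innate receptor gene Tlr4 (25). Other secreted factors of fat had 3 of 25 with a Foxp4 promoter peak, namely Lcn2 (34), Il6 (28) and Fndc5 (27), and 5 of 25 with H3K27ac, including Grn (80) and Il6 (39). Of these only Il6 had a Foxp4 promoter peak that overlapped H3K27ac.

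**Figure D4:**
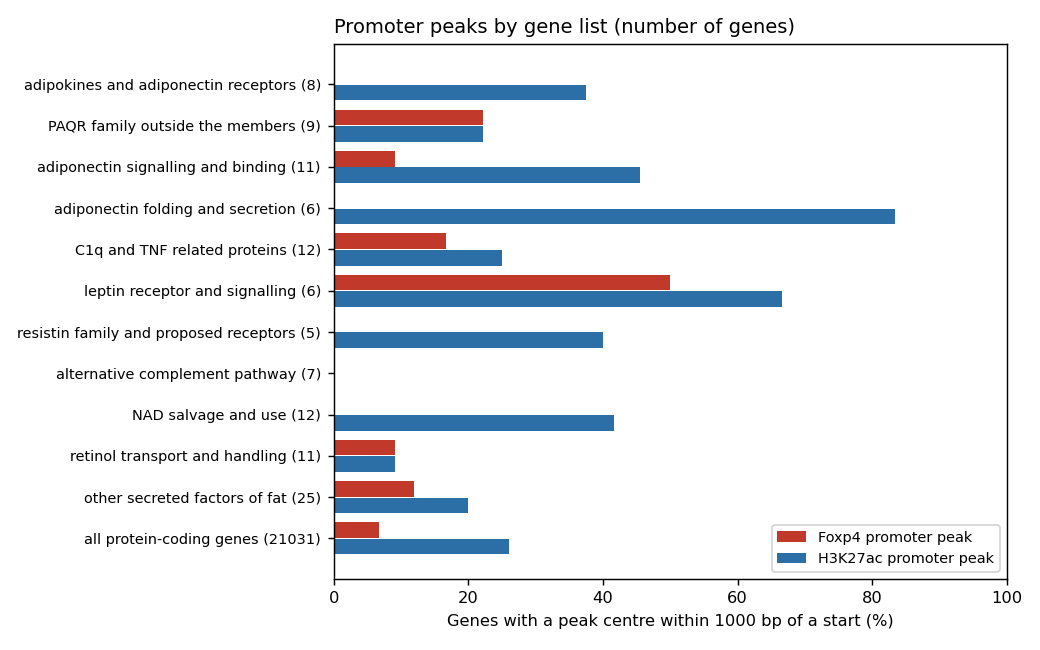
Share of genes (percent) with a peak centre within 1000 bp of a start, in the 8 adipokine and receptor genes, in the 10 pathway lists and in all protein-coding genes, with the number of genes in brackets. Red bars are Foxp4 and blue bars H3K27ac. By this window 0 of the 8 genes have a Foxp4 promoter peak (3 of 8 within 3000 bp), and folding and leptin signalling genes have the tallest blue bars, from 6 genes each.

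The cell type label was checked against marker genes. An H3K27ac promoter peak stood at 7 of 8 adipocyte markers (Pparg, Lipe, Plin1, Cebpa, Cidec, Cd36 and Lpl), at 1 of 8 beige and brown fat markers (Ebf2), at 2 of 7 fat progenitor markers (Ly6a and Pdgfra), at 1 of 7 macrophage markers (Cd68) and at 0 of 7 endothelial markers. The share of all protein-coding genes was 26.0%. Beige and brown fat markers lay below that share, so this count did not bear out the beige part of the label. Any H3K27ac peak was assigned to 8 of 8, 4 of 8, 5 of 7, 2 of 7 and 5 of 7 of them in the same order of lists. Among all protein-coding genes it was 37.5%. A Foxp4 promoter peak stood at 4 of 8 adipocyte markers and at 1 of 8 beige and brown fat markers, and at none of the other 3 lists. Of all protein-coding genes 6.77% had such a peak. Any Foxp4 peak was assigned to 4 of 8 beige and brown fat markers, against 36.6% of all protein-coding genes. Among them, Ppargc1a had 5 Foxp4 peaks, including a promoter peak of score 34, and 4 H3K27ac peaks, none at its promoter. Ucp1, on the same list, had no called peak of Foxp4 or H3K27ac. The part of other cells of the starting population in the peaks of Retn, Nampt and the receptors was not tested.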

How the data were processed

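ChIP-seq peak lists of 1 Foxp4 and 1 H3K27ac library, assigned by sample title, were analysed. The submitters' processing notes list mm10 as the build and deepTools 3.3.0, MACS2, SAMtools, Picard and Bowtie2 as tools, with no roles or settings. Per the file headers, the authors annotated each narrowPeak list with HOMER annotatePeaks.pl on mm10, giving the nearest transcription start, the signed distance to it from the peak centre and the class. Deposited peak scores are whole numbers whose scale is not given in the sources used here, as are the use of the input and the threshold of the call. Depth is unknown from the lists, so a gene without a peak may only lack a called one.

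The autosomes, X and Y were used, and 1 Foxp4 peak elsewhere was left out. Peaks were taken by the deposited gene name for the 8 genes and by Entrez identifier for all others. Background genes are protein-coding with a curated messenger RNA (21031; 856 without were left out). A promoter peak has its centre within 1000 bp of a start, overlap is at least 1 shared bp, and a recurrent score is held by at least 100 Foxp4 peaks, over 3 times the number at the value just below and just above it. The 8 genes and all lists were chosen with earlier results of these data known, so no list was tested and no p-value is given. Named genes were all 8 and up to 4 genes per list with a promoter peak by highest Foxp4 and then H3K27ac score. For each of the 8 with a peak, the 2 most alike were also named. Further adipocyte markers, Ucp1 and neighbouring genes were named after their values were seen. Motifs could be searched in RefSeq promoter windows only, not in peaks. Functions were tested on simulated data. Python 3.11.15, numpy 2.4.6, pandas 2.3.3 and matplotlib 3.10.9 were used.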

Additional observations from a re-analysis of the deposited data

How the results depend on the processing

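Of 31 alternatives computed for 9 results, 22 gave a count within 1.5 times the reported one. Where the reported count was 0, a stricter setting could only give 0 again. Many of the 22 are of that kind, and the overlap counts of either list describe the same absence. The 22 are thus no measure of stability. Foxp4 peaks were assigned to 2 of the 8 genes (4 as reported) in the higher-scoring 50% of the list and to 1, Nampt, without the recurrent scores. The recurrent scores were held by 73.1% of all Foxp4 peaks. Shares of all protein-coding genes under these filters are not given here, so the lower counts are not read as a feature of these genes. Counting any H3K27ac peak within 50000 bp of a start, whichever gene it was assigned to, gave 8 of 8 genes, against 5 as reported. The share of all protein-coding genes by this wide rule is not given here, so the count is not read as a feature of these genes. A promoter window of 3000 bp gave 3 genes with a Foxp4 peak (Adipoq, Rbp4 and Adipor1, against 10.4% of protein-coding genes), where 1000 bp gave 0. An H3K27ac promoter peak stood at 1 gene, Adipor1, with a window of 500 bp and by the authors' promoter class, against 3 as reported. Shares of all genes by those rules are not given here either. Allowing a gap of up to 1000 bp paired 1 Foxp4 peak with 1 H3K27ac peak, both at Adipor1, where 0 overlapped. Shortening the PPAR and RXR motif to its first 7 bases (AGGTCAN) gave 1 window, that of Nampt, against 0 (16.2% of all windows hold these letters). No paired analysis was possible because each target has 1 library, and no replicate could be left out. Depth is unknown, so counts of 0 are limits of the peak calls.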
